A study of Homo sapiens with 4 samples.

Results

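The genes described here are 40 named genes of the centromere, the kinetochore and the spindle checkpoint, out of 23284 gene symbols on 24934 rows of an RNA-seq expression table. They were chosen by name, with earlier results of these data known. They comprise 4 inner centromere genes, 30 kinetochore genes and 6 checkpoint genes. All 40 reached 1 FPKM (fragments per kilobase of transcript relative to library depth) in every library, so none was lost to a limit on low values.

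HEK-293, an established human embryonic kidney line, was transfected for 48 h with siRNA at 10 nM. The siRNAs were si4 or si5 against ZSCAN5A, si1 against ZSCAN5B, or a scrambled negative control, and 1 mRNA library was sequenced for each, 4 in all. ZSCAN5A and ZSCAN5B are related zinc finger genes, and the libraries were made to find genes whose expression differed after their knockdown. No siRNA has a second library, so differences between libraries are given as folds without a test, and every comparison with the control rests on the same control library.

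The kinetochore is the protein assembly that ties a chromosome to the spindle. It is built on centromeric chromatin that carries the histone H3 variant CENP-A. A constitutive network of CENP proteins sits on this chromatin through the cell cycle, and the outer kinetochore, with the NDC80, MIS12 and KNL1 complexes, is added for mitosis and binds microtubules. Unattached kinetochores recruit BUB and MAD proteins, which hold back the anaphase-promoting complex until all chromosomes are attached, and the chromosomal passenger complex with Aurora B releases wrong attachments. Most of these genes are transcribed mainly in late S phase, G2 and mitosis.

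The 3 siRNAs are shown because the comparisons rest on them, as the strand complementary to the target, written 5′ to 3′, with the seed (bases 2 to 8) in capitals. The si4 site is at chr19:56733332-56733352 and the si5 site at chr19:56733307-56733327 of hg19, both on the minus strand and within the coding part of exon 6 of ZSCAN5A, its last exon. The si1 site is at chr19:56701591-56701611, on the minus strand and within the coding part of exon 5 of ZSCAN5B, its last exon.
si4: tTACACGTaaacctcttctcg
si5: tCTCTTGTggatgactagctt
si1: tAAATGATttattgcacacgt
The 3 seeds differ from each other. The complement of the si4 seed, ACGTGTA, was present in the 3′ UTR of 1 of the 40 genes (SPC24), against 3.00% of 18604 genes with a 3′ UTR, and that of the si5 seed, ACAAGAG, in 1 (NSL1) against 11.1%. The complement of the si1 seed, ATCATTT, was present in 10 of the 40 (25%) against 20.4%.

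Promoters are shown for members among the highest and lowest with the ZSCAN5A siRNAs. CENPM, TTK and CASC5, also among the highest, are not shown because no promoter was found for them. The letters searched were TTTGAA, the cell cycle homology region (CHR) element found in many genes of G2 and mitosis, and CCAAT, the CCAAT box, on both strands. Each line holds the 100 bases before the annotated start, in the direction of transcription, from RefSeq (GRCh38.p14), and capitals mark either motif or its reverse complement.
CENPE (chr4:103198344-103198443, minus strand): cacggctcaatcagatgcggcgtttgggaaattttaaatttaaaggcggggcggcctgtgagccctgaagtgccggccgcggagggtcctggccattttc
CENPF (chr1:214603095-214603194, plus strand): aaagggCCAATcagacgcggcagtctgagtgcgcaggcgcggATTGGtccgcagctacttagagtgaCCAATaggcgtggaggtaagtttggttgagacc
PLK1 (chr16:23678789-23678888, plus strand): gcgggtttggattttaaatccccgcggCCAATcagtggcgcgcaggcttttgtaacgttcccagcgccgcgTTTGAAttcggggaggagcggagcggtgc
CDCA8 (chr1:37692416-37692515, plus strand): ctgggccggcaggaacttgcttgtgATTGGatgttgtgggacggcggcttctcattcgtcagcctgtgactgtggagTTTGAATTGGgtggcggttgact
INCENP (chr11:62123911-62124010, plus strand): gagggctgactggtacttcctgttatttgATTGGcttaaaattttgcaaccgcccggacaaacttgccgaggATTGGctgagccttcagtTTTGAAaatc
CENPT (chr16:67847694-67847793, minus strand): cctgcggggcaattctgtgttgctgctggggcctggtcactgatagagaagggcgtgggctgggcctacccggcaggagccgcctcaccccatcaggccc
In CDCA8 the 2 motifs share bases. PLK1, CDCA8 and INCENP, all lower with every siRNA, hold both motifs in these windows. CENPT, also lower, and CENPE, the member with the highest ratio, hold neither. Among members not shown, CENPC1, SPC25 and ZWINT also hold both motifs within the 100 bases before the start. Their log2 ratios of the mean of si4 and si5 to the control were 0.15, 0.06 and −0.05.

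ZSCAN5A was at 0.730 FPKM with si4 and 0.713 FPKM with si5, against 2.42 FPKM in the control and 2.53 FPKM with si1. ZSCAN5B was under 0.1 FPKM in every library. It was at 0.0948 FPKM with si1 and 0.0903 FPKM in the control, with 0.0331 FPKM for si4 and 0.0663 FPKM for si5. Levels this low cannot show whether si1 lowered its target. The study measured that knockdown by quantitative RT-PCR and Western blot, and reported less ZSCAN5B transcript and protein with si1. By RT-PCR it reported more ZSCAN5B transcript with si4. Its RT-PCR values for ZSCAN5D, a further related gene, were below the control with si4, si5 and si1, lowest with si5. The comparisons below are named by the intended target of each siRNA. The si1 library is called here the library labelled ZSCAN5B knockdown. The depth estimated from the FPKM values was 53400000 to 82500000 fragments, with the si5 library the deepest at 1.54 times the control. That is a wider spread than the near-equal read yields given in the study's methods. The si5 estimate also exceeded the yield stated there, and the fragment numbers used below rest on these estimates. The FPKM values summed to 488036 in the control and to 537181 to 546239 in the 3 siRNA libraries. Of 6 genes that mark HEK-293 cells, VIM, KRT8, KRT18, NEFL and NEFM were at 8.46 FPKM or above in every library and PAX2 was at 0.584 to 1.16 FPKM. Markers of blood, liver and connective tissue cells (PTPRC, CD3E, HBB, ALB and COL3A1) were at 0.372 FPKM or below in every library, with HBB listed at 0 in all 4.

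In the control, the highest members were BUB3 at 122 FPKM, MAD2L1 at 100.4 FPKM and CENPW at 91.6 FPKM. BUB3 and MAD2L1 belong to the spindle checkpoint, and CENPW is a histone-fold protein of the constitutive network. The lowest were CENPP at 2.00 FPKM, NSL1 at 3.86 FPKM and CASC5 at 4.93 FPKM. CENPP is a subunit of the CENP-O group of the constitutive network, NSL1 a subunit of the MIS12 complex, and CASC5 (now KNL1) the scaffold that BUB proteins dock on. In the other libraries CENPP was at 1.99 FPKM (si4), 2.11 FPKM (si5) and 1.98 FPKM (si1). The estimated fragments behind these control values ran from 888 for CENPP to 50097 for BUB3. CENPP stood at the 50.1 percentile of all symbols by control FPKM and BUB3 at 97.8, so the whole group lay in the upper part of the table. BUB1, the checkpoint kinase that marks centromeric histone H2A, was at 47.7 FPKM in the control, with 50.9 for si4, 50.5 for si5 and 48.9 for si1, a narrow span.

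The first question was whether these genes differed after ZSCAN5A knockdown, taken as the mean of si4 and si5 against the control. The differences were small and unequal between roles. CENPE, CENPF, CENPM, TTK and CASC5 stood higher, while 3 of the 4 passenger complex genes, PLK1 and CENPT stood lower. CENPE, the highest, stood at the 99.2 percentile of all genes compared, and CENPT, the lowest, only at the 18.3 percentile. Of the 40 genes 26 were higher than the control and 14 lower, and their median log2 ratio was 0.07. Over the 12935 genes compared by the same rule the median was −0.02 and 46.7% were higher. No member was past 1.5-fold, against 3.77% of all genes. Past 1.2-fold, 5 members were higher (CENPE, CENPF, CENPM, TTK and CASC5), against 9.13% of all genes, and 0 were lower, against 17.7%. A share of 5 in 40 is near that background. In bulk libraries, more of these transcripts per cell cannot be told apart from a larger fraction of cells in the phases that express them.

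**Figure D1:**
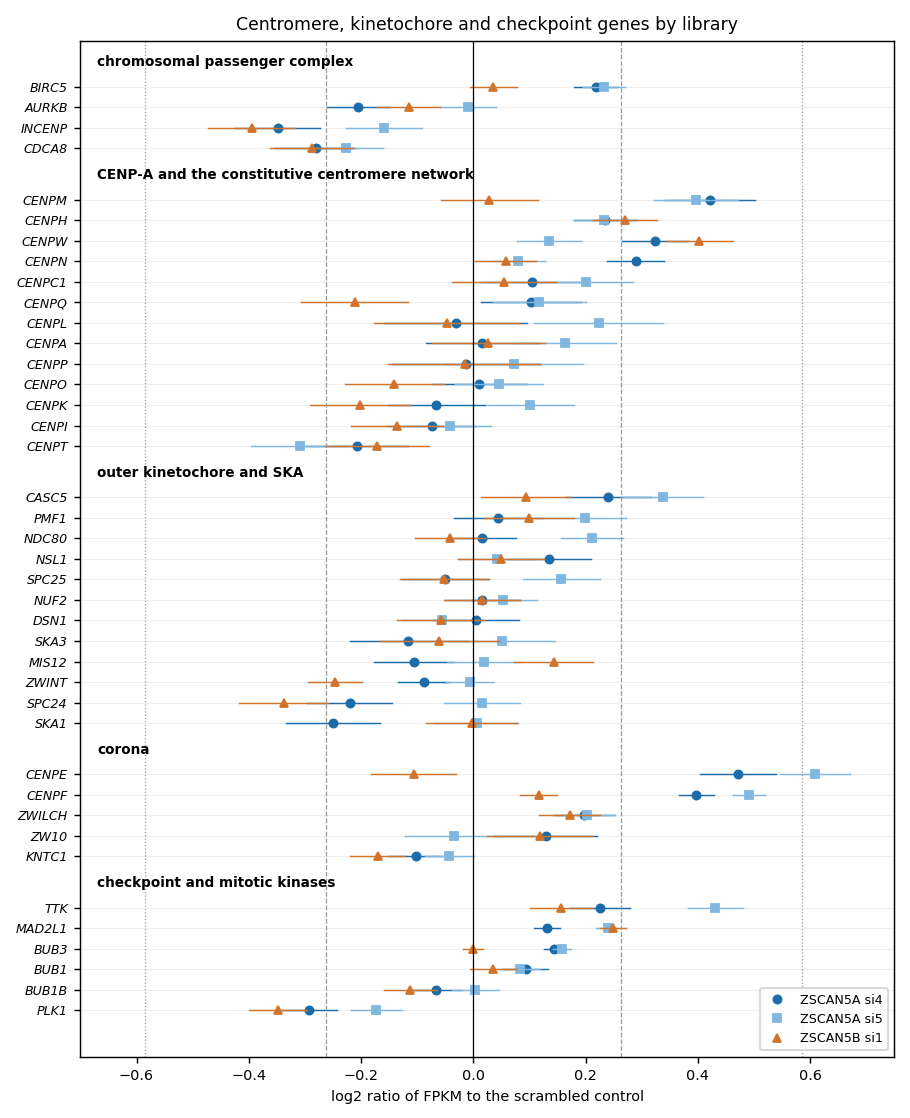
log2 ratio of FPKM to the scrambled control (x axis) for the 40 genes by role (y axis), 1 library per point: circles si4, squares si5, triangles si1. Bars are 95% counting intervals from estimated fragments, which cover counting error only, and the dashed and dotted lines mark 1.2-fold and 1.5-fold. CENPE, CENPF and CENPM stand right of the upper 1.2-fold line with si4 and with si5, and INCENP, CDCA8, PLK1 and CENPT stand left of 0 with all 3 siRNAs.

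The medians of the 3 classes lay on both sides of 0. With the ZSCAN5A siRNAs the inner centromere class was at −0.18, the kinetochore class at 0.07 and the checkpoint class at 0.12 in median log2 ratio. The inner centromere class was at −0.24 with si4 alone and −0.08 with si5 alone. The kinetochore class was at 0.015 with si4 alone and 0.09 with si5 alone, and at 0.022 after the correction for length and GC content described further on. Within the kinetochore class the constitutive network was at 0.10 (11 of 13 genes higher), the outer kinetochore with SKA at 0.00 (6 of 12 higher) and the corona at 0.20 (4 of 5 higher). With si4 alone these were at 0.02 (8 of 13), −0.02 (6 of 12) and 0.20 (4 of 5). With si5 alone they were at 0.12 (11 of 13), 0.05 (10 of 12) and 0.20 (3 of 5). Of all genes, 46.7% were higher with the mean, 47.9% with si4 and 45.1% with si5. With 4 to 13 genes in each, these medians describe the genes named and carry no test.

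The chromosomal passenger complex consists of the kinase AURKB, the scaffold INCENP, survivin (BIRC5) and borealin (CDCA8), and its genes did not stand on one side. INCENP was at 14.1 FPKM in the control, with 11.1 for si4, 12.6 for si5 and 10.7 for si1. CDCA8 was at 26.0 FPKM in the control, with 21.4 for si4, 22.3 for si5 and 21.3 for si1. The control was thus the highest library for both genes, and their log2 ratios with the ZSCAN5A siRNAs were −0.25 and −0.25. BIRC5 was at 66.5 FPKM in the control, with 77.3 for si4, 78.1 for si5 and 68.1 for si1. Its log2 ratio of 0.23 was the only one above 0 in the class. AURKB was at 80.5 FPKM in the control, with 69.9 for si4, 80.0 for si5 and 74.4 for si1, so that si5 stood beside the control and si4 below it.

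In CENP-A chromatin and the constitutive network, CENPM had the highest ratio and CENPT the lowest. CENPM, a subunit that binds CENP-I, was at 42.4 FPKM in the control, with 56.8 for si4, 55.8 for si5 and 43.2 for si1. Both ZSCAN5A libraries lay above the other 2, at 1.34-fold the control with si4 (95% interval 1.27 to 1.42) and 1.32-fold with si5 (1.25 to 1.39). These and later intervals are exact Clopper-Pearson intervals on estimated fragments and cover counting error only. CENPT, which links the network to the NDC80 complex, was at 14.6 FPKM in the control, with 12.6 for si4, 11.8 for si5 and 12.9 for si1, and was the lowest member of all with a log2 ratio of −0.26. CENPA itself was at 21.4, 23.7, 21.6 and 21.2 FPKM with si4, si5, si1 and the control, and only the si5 interval, 1.05 to 1.19-fold, lay above 1. CENPH and CENPN, which bind in the network's core, had log2 ratios of 0.23 and 0.19. The other 8 genes of this group, CENPC1 (now CENPC), CENPI, CENPK, CENPL, CENPO, CENPP, CENPQ and CENPW, had log2 ratios from −0.06 (CENPI) to 0.23 (CENPW).

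The outer kinetochore genes lay close to the control. CASC5 had the highest ratio, at 4.93 FPKM in the control, with 5.82 for si4, 6.23 for si5 and 5.26 for si1, a log2 ratio of 0.29. SKA1, which helps NDC80 hold on to shortening microtubules, had the lowest, at 13.4 FPKM with si4 against 16.0 with si5, 15.9 with si1 and 15.9 in the control. Only the si4 library was low for SKA1, and the log2 ratio of the mean was −0.12. The other 10 genes (NDC80, NUF2, SPC24, SPC25, DSN1, MIS12, PMF1, NSL1, ZWINT and SKA3) had log2 ratios from −0.10 (SPC24) to 0.12 (PMF1).

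The corona held the member furthest from the control. CENPE, the kinesin that carries chromosomes to the spindle equator, was at 6.41 FPKM in the control, with 8.89 for si4, 9.78 for si5 and 5.95 for si1. The ratio was 1.39-fold with si4 (95% interval 1.32 to 1.45) and 1.52-fold with si5 (1.46 to 1.59), and the log2 ratio of the mean, 0.54, stood at the 99.2 percentile of all genes compared. CENPF, a large coiled-coil protein that accumulates in G2, was at 25.4 FPKM in the control, with 33.5 for si4, 35.8 for si5 and 27.6 for si1. For both genes the si4 and si5 libraries lay above the other 2. CENPF was at 1.32-fold with si4 (1.29 to 1.35) and 1.41-fold with si5 (1.38 to 1.43), with a log2 ratio of 0.44 for the mean. The 3 genes of the RZZ complex, which brings dynein to kinetochores, differed less: ZWILCH had a log2 ratio of 0.20, ZW10 of 0.05 and KNTC1 of −0.07, and KNTC1 was the lowest of the corona.

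Of the checkpoint genes and mitotic kinases, TTK and PLK1 stood furthest apart. TTK (MPS1), the kinase that starts checkpoint signalling, was at 31.4 FPKM in the control, with 36.8 for si4, 42.3 for si5 and 35.0 for si1, a log2 ratio of 0.33. PLK1, which acts from mitotic entry to exit, was at 58.2 FPKM in the control, with 47.5 for si4, 51.6 for si5 and 45.7 for si1, a log2 ratio of −0.23. The control was the lowest library for TTK and the highest for PLK1. MAD2L1 (MAD2), which inhibits CDC20, was at 109.9, 118, 119 and 100.4 FPKM with si4, si5, si1 and the control, and BUB3 at 134, 136, 122 and 122 FPKM in the same order. Their log2 ratios were 0.19 and 0.15. BUB1 was at 0.09 and BUB1B (BUBR1) at −0.03.

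**Figure D2:**
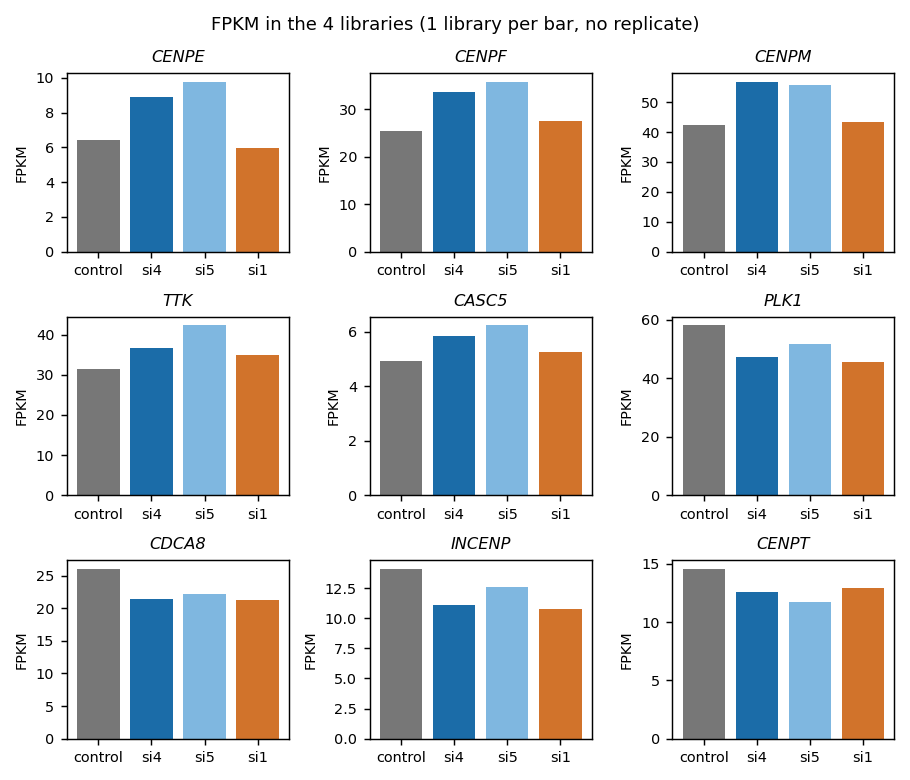
FPKM (y axis, from 0) in the control, si4, si5 and si1 libraries (x axis), 1 library per bar, for 9 of the genes. The si4 and si5 bars of CENPE, CENPF and CENPM exceed both other bars, whereas for PLK1, CDCA8, INCENP and CENPT the control bar is the tallest.

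Taken singly, the ZSCAN5A siRNAs gave different counts. With si4, 23 of the 40 genes were higher than the control with a median log2 ratio of 0.02, against 47.9% of all genes with a median of −0.01. Past 1.2-fold, 5 were higher (CENPE, CENPM, CENPF, CENPW and CENPN) against 13.3% of all genes, and 3 were lower (INCENP, PLK1 and CDCA8) against 20.7%. With si5, 30 were higher with a median of 0.08, against 45.1% of all genes with a median of −0.03. Past 1.2-fold with si5, 5 were higher (CENPE, CENPF, TTK, CENPM and CASC5) against 7.89%, and 1 was lower (CENPT) against 17.7%. CENPE alone was past 1.5-fold higher with si5, where 0.575% of all genes were. CENPE, CENPF and CENPM were past 1.2-fold with both siRNAs, 3 of 40 against 4.98% of all genes. No member was past it on the lower side with both, against 11.7%. Counting intervals against the control lay above 1 for 17 genes with si4, against 33.8% of all genes with an annotated length, and below 1 for 12, against 36.4%. With si5 they lay above 1 for 21, against 29.3%, and below 1 for 4, against 37.2%.

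The direct comparison of si5 with si4 uses no control library. Of the 40 genes 31 were higher with si5, with a median log2 ratio of 0.08, whereas 45.4% of 12748 genes were higher with si5 and the median over them was −0.02. The shift was small for each gene: none was past 1.5-fold, against 2.53% of all genes, or past 1.2-fold, where 8.85% of all genes were higher and 8.59% lower. With median-ratio and upper-quartile scaling, 2 and 3 members were past 1.2-fold. The class medians were 0.12 for the inner centromere, 0.08 for the kinetochore and 0.09 for the checkpoint, so the 3 classes lay on the same side. The outer kinetochore with SKA was at 0.14 (10 of 12 higher) and the constitutive network at 0.03 (8 of 13 higher).

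The members furthest above si4 with si5 were SKA1, CENPL, SPC24, SPC25 and TTK. SKA1 was at 16.0 FPKM with si5 and 13.4 FPKM with si4, 1.19-fold higher (95% interval 1.13 to 1.26) and beside the control. CENPL, which binds CENP-A nucleosomes with CENPN, was at 6.71 FPKM in the control, with 6.56 for si4, 7.83 for si5 and 6.49 for si1. SPC24 and SPC25 form the part of the NDC80 complex that faces the centromere, and both were highest with si5. SPC24 was at 23.8 FPKM in the control, with 20.4 for si4, 24.1 for si5 and 18.8 for si1. SPC25 was at 37.3 FPKM in the control, with 36.0 for si4, 41.5 for si5 and 36.0 for si1. For SPC24 the si5 library lay beside the control with si4 below, while for SPC25 the si5 library lay above the other 3. NDC80, their partner in the complex, was named after its values were seen: it was at 36.6 FPKM in the control, with 36.9 for si4, 42.3 for si5 and 35.5 for si1.

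The members furthest below si4 with si5 were CENPN, CENPW, ZW10, CENPT and NSL1. CENPN, which reads CENP-A nucleosomes, was at 25.5 FPKM in the control, with 31.2 for si4, 27.0 for si5 and 26.6 for si1, a fold of 0.865 between the siRNAs (0.838 to 0.892). CENPW was at 91.6 FPKM in the control, with 114.7 for si4, 100.6 for si5 and 121 for si1. Here si4 lay further from the control than si5. ZW10 was at 11.6 FPKM in the control, with 12.7 for si4, 11.3 for si5 and 12.6 for si1. NSL1 was at 3.86 FPKM in the control, with 4.24 for si4, 3.97 for si5 and 3.99 for si1. For ZW10 the si5 library alone lay below the control, and for NSL1 all 3 siRNA libraries lay above it. The log2 ratio of si5 to si4 was −0.16 for ZW10, −0.10 for CENPT and −0.09 for NSL1. Over the 40 genes the counting interval of si5 to si4 lay above 1 for 23, against 26.2% of all genes, below 1 for 5, against 33.7%, and held 1 for 12. Among genes with opposite sides, 9 were lower than the control with si4 and higher with si5 (BUB1B, CENPK, CENPL, CENPP, MIS12, SKA1, SKA3, SPC24 and SPC25), against 10.4% of all genes, and 2 were the reverse (DSN1 and ZW10), against 13.2%.

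**Figure D3:**
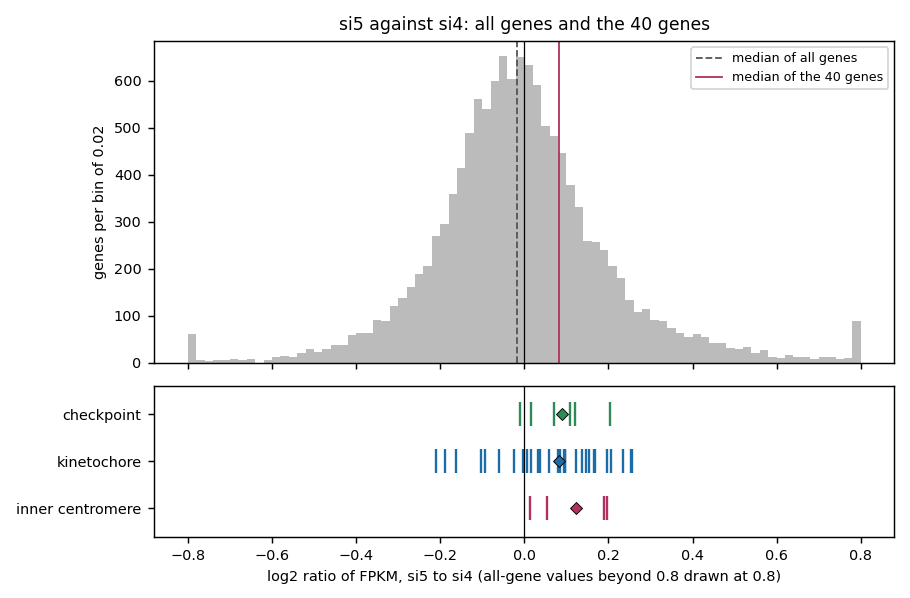
Upper panel, number of genes (y axis) by log2 ratio of FPKM with si5 to si4 (x axis) over the 12748 genes compared. Lower panel, the same ratio for the 40 genes by class, 1 line per gene, with a diamond at each class median (0.12, 0.08 and 0.09), all to the right of the all-gene median of −0.02.

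In the si1 library, labelled ZSCAN5B knockdown, the group had a median near the control in the deposited values. Of the 40 genes 19 were higher and 21 lower, where 48.5% of all 12866 genes compared were higher. The median log2 ratio of the 40 was −0.01, the same as over all genes (−0.01), and 0.0020 with upper-quartile scaling. After the length and GC content correction the median was −0.088, with 24 of the 40 lower. No member was past 1.5-fold, against 4% of all genes. Past 1.2-fold, 2 were higher (CENPW and CENPH) against 11.1%, and 4 were lower (INCENP, PLK1, SPC24 and CDCA8) against 17.3%. After that correction 0 were higher and 6 lower past 1.2-fold (CENPQ, CENPK, PLK1, ZWINT, SPC24 and CDCA8). CENPW was then at a log2 ratio of 0.17, CENPH at 0.09 and INCENP at −0.23, none of them past 1.2-fold. In the deposited values CENPW and INCENP stood furthest out, with log2 ratios of 0.40 and −0.39 and FPKM values given above. The log2 ratio was −0.35 for PLK1, −0.34 for SPC24 and −0.29 for CDCA8. CENPH was at 62.3 FPKM in the control, with 73.4 for si4, 73.2 for si5 and 75.1 for si1, and its log2 ratio with si1 was 0.27. The class medians were −0.20 for the inner centromere, −0.01 for the kinetochore (0.0020 with upper-quartile scaling) and 0.02 for the checkpoint. Counting intervals lay above 1 for 11 genes, against 32.2% of all genes, and below 1 for 14, against 33.8%.

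Side by side, the comparisons with the shared control library gave 17 genes above it with all 3 siRNAs, against 30% of all genes, and 8 below it with all 3, against 36.3%. The 8 were AURKB, CDCA8, CENPI, CENPT, INCENP, KNTC1, PLK1 and ZWINT. Another 4 genes, CENPE, CENPO, CENPQ and NDC80, were above the control with si4 and si5 and below it with si1, against 4.62% of all genes, and 0 were the reverse, against 5.52%. For CENPE and CENPQ the counting intervals of all 3 siRNAs also lay clear of 1 on these sides, a pattern found in either direction in 1.16% of all genes. A direct comparison of the ZSCAN5A siRNAs with si1, added after the values were seen, uses no control library. By it 33 of the 40 genes were higher with the ZSCAN5A siRNAs, against 46.2% of 12832 genes, with a median log2 ratio of 0.09 against −0.01. Past 1.2-fold, 4 were higher (CENPE, CENPM, CENPF and CENPQ) against 4.64%, and 0 were lower against 5.74%. CENPE was past 1.5-fold at a log2 ratio of 0.65, where 0.616% of all genes were higher.

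The other genes of the pathway comprised 47 genes: the remaining CENP and CENP-A loading genes, shugoshins, checkpoint partners and the anaphase-promoting complex with its targets. They were listed by role, with earlier results of these data known. With the ZSCAN5A siRNAs 33 of the 47 were higher with a median log2 ratio of 0.07, the value of the 40 genes, where 46.7% of all genes were higher. Past 1.2-fold, 4 were higher, against 9.13% of all genes, and 3 lower, against 17.7%. BOD1, which helps chromosomes reach both spindle poles, was at 25.1 FPKM in the control, with 45.2 for si4, 35.0 for si5 and 41.0 for si1, the only gene of the list past 1.5-fold with the ZSCAN5A siRNAs and with si1. With si1, 33 of the 47 were higher, against 48.5% of all genes, with a median of 0.08. From si4 to si5, 21 of the 47 were higher, against 45.4%, with a median of −0.02, the median of all genes, whereas the 40 genes stood at 0.08.

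The study had chosen phase markers, among them BUB1. CCNE1 (cyclin E, G1/S) was at 30.0 FPKM in the control, with 27.5 for si4, 29.4 for si5 and 27.6 for si1. RRM2, the ribonucleotide reductase subunit of S phase, was at 87.9 FPKM in the control, with 54.1 for si4, 79.7 for si5 and 46.5 for si1. The control was the highest library for both, and RRM2 differed more between si4 and si5 than any of the 40 genes, with a log2 ratio of 0.56. CDK1, the mitotic cyclin-dependent kinase, was at 136 FPKM in the control, with 136 for si4, 155 for si5 and 141 for si1. PTTG1 (securin), which the anaphase-promoting complex degrades, was at 203 FPKM in the control, with 226 for si4, 232 for si5 and 230 for si1. CDK1 was highest with si5, and PTTG1 was higher with all 3 siRNAs than in the control.

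Other cell cycle genes are given beside these values, as lists of 20 G2/M and 20 G1/S genes that hold none of the 40 genes. The median log2 ratio of the G2/M genes was 0.07 with the ZSCAN5A siRNAs and −0.03 with si1. Taken singly, it was −0.03 with si4 (7 of 20 higher, against 47.9% of all genes) and 0.14 with si5 (16 of 20 higher, against 45.1%). From si4 to si5, 18 of the 20 were higher, against 45.4% of all genes, with a median of 0.15, whereas the G1/S genes were at 0.01. With si1, 3 of the 20 G1/S genes were higher, against 48.5% of all genes, and 17 lower, with a median of −0.10. In the direct comparison of the ZSCAN5A siRNAs with si1, 18 of the 20 G1/S genes and 15 of the 20 G2/M genes were higher, against 46.2% of all genes. Their medians were 0.18 and 0.05, beside 0.09 for the 40 genes. Whether the phases of the cells account for the values of the 40 genes was not tested.

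GC content moved with the ratios to the control. The 40 genes had a median GC content of 42.1%, against 48.2% over all genes with an annotated transcript. Over the 40 genes, which share the same 3 libraries, the log2 ratio of the ZSCAN5A siRNAs to the control correlated with GC content at a Pearson r of −0.43 (n = 40), and over 12349 genes at −0.15. For si1 the values were −0.40 and −0.13. CENPE (35.1% GC), TTK (36.4%) and CASC5 (37.6%) lay at the low end, and PLK1 (57.1%), INCENP (58.8%) and CENPT (59.0%) at the high end. Other members lay off this order. CENPM, at 59.7% GC, had a log2 ratio of 0.41, and PMF1, at 56.2% GC, one of 0.12. CENPK, at 32.8% GC, was at 0.02 and CENPQ, at 34.0%, at 0.11. After a correction for length and GC content over all genes, the log2 ratio was 0.52 for CENPE, 0.49 for CENPF, 0.27 for CASC5, 0.25 for CENPM and 0.24 for TTK. On the lower side it was −0.10 for INCENP, −0.25 for CDCA8, −0.24 for PLK1 and −0.22 for CENPT. The median of the 40 genes was then 0.02. From si4 to si5 the correlation with GC content was 0.03 over the 40 genes. With log2 transcript length, the ratio of the ZSCAN5A siRNAs to the control correlated at 0.17 over the 40 genes and at −0.31 over all genes. The part of GC content and length in these ratios was not tested beyond this correction.

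**Figure D4:**
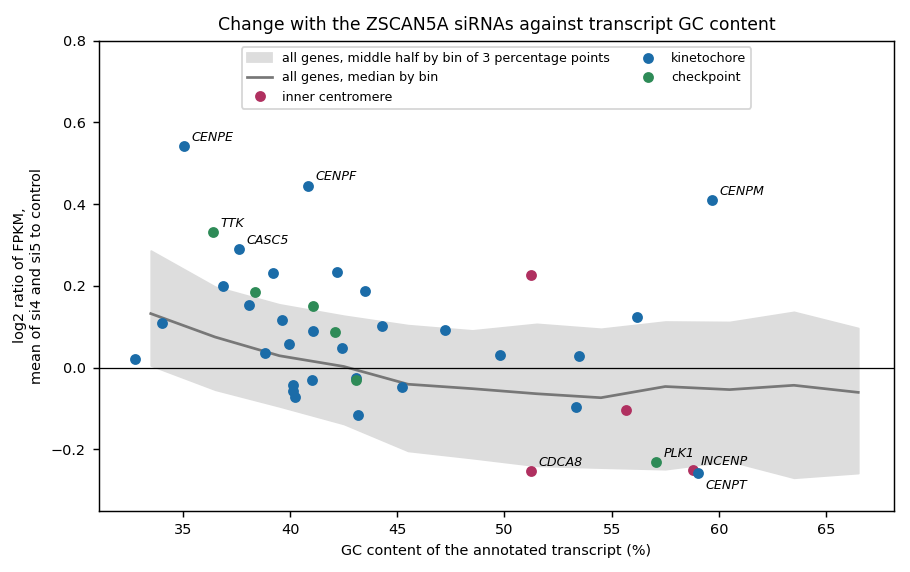
log2 ratio of FPKM of the ZSCAN5A siRNAs to the control (y axis) by GC content of the annotated transcript in percent (x axis), 1 point per gene coloured by class. The line and band are the median and interquartile range of all genes in bins of GC content. CENPE at 35.1% GC is the highest point and CENPT at 59.0% the lowest, CENPK at 32.8% and CENPQ at 34.0% lie at 0.02 and 0.11, and CENPM at 59.7% lies at 0.41.

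Promoters were found for 32 of the 40 genes in RefSeq (GRCh38.p14), from 250 bases before to 50 after the start. None was found for BIRC5, BUB3, CASC5, CENPH, CENPL, CENPM, KNTC1 and TTK. TTTGAA or its reverse complement TTCAAA was present in 17 of the 32 (53.1%), against 15.4% of 27305 promoters of the same length, and within 50 bases of the start in 15 (46.9%) against 4.67%. CCAAT or ATTGG was present in 20 (62.5%) against 35.7%, and both motifs in 11 (34.4%) against 6.08%. In CENPF the TTTGAA match lies after the start, outside the sequence shown above. With the ZSCAN5A siRNAs the median log2 ratio was 0.03 for the 17 genes with TTTGAA and 0.03 for the 15 without it. These medians lack CENPM, TTK and CASC5, which were past 1.2-fold higher. From si4 to si5 the medians were 0.10 (15 of 17 higher) and 0.03 (10 of 15 higher), where 45.4% of all genes were higher.

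Read assignment limits some of these values. The listed loci of 7 of the 40 genes overlap another gene that reached 1 FPKM: CENPN, CENPO, CENPP, CENPT, PMF1, SKA3 and ZWILCH. PMF1 shares its exons with the read-through gene PMF1-BGLAP. The sources used here do not say whether strand was used, so the levels of these 7 genes are less certain than those of the others. The hg19 loci of the genes named most often are chr4:104026963-104119566 for CENPE, chr1:214776532-214837914 for CENPF, chr22:42334741-42343148 for CENPM, chr11:61891445-61920635 for INCENP and chr16:67862060-67881361 for CENPT.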

How the data were processed

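The authors deposited 1 table of FPKM values with the symbol and hg19 locus of each gene, from 4 poly(A) RNA libraries of HEK-293 cells. The submitters' processing notes name CASAVA 1.8.2, Trimmomatic 0.30, TopHat2 2.1.0 and Cufflinks 2.2.1 with the hg19 build. Labels and methods name different library kits (TruSeq Stranded mRNA and KAPA Stranded mRNA). Values were used as deposited, without further normalization or pseudocount. Where 543 symbols stood on more than 1 row the highest row was kept, which affected none of the 40 genes. Loci in the table count from 0 and are given here from 1.

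Log2 ratios were taken where at least 1 library of a comparison reached 1 FPKM and neither side was 0, for the mean of si4 and si5 and for each library singly. Limits of 1.5-fold and 1.2-fold were used. Fragments were estimated from steps between low FPKM values: 68.6% of 1670 genes under 0.1 FPKM stood in whole-number proportions, within 0.5%, with at most 12 fragments in the control. Intervals from them cover counting error only, and reads without molecular identifiers are not independent molecules. Lengths, GC content and 3′ UTRs came from GENCODE 44 lifted to GRCh37, which matched 85.4% of the symbols and all 40 genes, siRNA targets from the study's supplement, and promoters from RefSeq.

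The genes and lists were chosen with earlier results of these data known. Values in every library are given for BUB1 and CENPF, the highest and lowest member of each class, the 5 largest rises and falls from si4 to si5, members past 1.2-fold with both ZSCAN5A siRNAs, the 5 furthest past 1.2-fold with si1, the 3 highest and 3 lowest by level, ZSCAN5A, ZSCAN5B and phase markers. AURKB, BIRC5, CENPA, CASC5, TTK, MAD2L1, CENPH, NDC80 and BOD1, where not among these, were named after their values were seen. The methods were run on simulated data, but their error in these libraries, with 1 library per siRNA, was not tested. Alternatives covered scaling, the FPKM limit, a pseudocount, rows that share a symbol, length and GC content, each siRNA singly, 1 depth for all libraries (chosen after seeing the data), and limma 3.58.1 in R 4.3.3. Python 3.11.15 with NumPy 2.4.6, pandas 2.3.3, SciPy 1.17.1 and matplotlib 3.10.9 was used. Read counts, ZSCAN5C, ZSCAN5D and the other assays of the study were not analysed here.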

Additional observations from a re-analysis of the deposited data

Results flagged for a closer look

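For 2 of the 40 genes both ZSCAN5A libraries lay on one side of the control and the library labelled ZSCAN5B knockdown on the other, each with a counting interval clear of 1, against 1.16% of all genes. CENPE was at 8.89 FPKM with si4 and 9.78 with si5 but at 5.95 with si1, against 6.41 in the control. Its log2 ratio of the ZSCAN5A siRNAs to si1 was 0.65. CENPE is among the 10 genes whose 3′ UTR holds the complement of the si1 seed, and its log2 ratio with si1 was −0.11. Whether that site bears on the si1 value was not tested. CENPQ, a microtubule-binding subunit of the constitutive network, was at 20.5 FPKM in the control, with 22.0 for si4, 22.2 for si5 and 17.7 for si1. Its log2 ratio to si1 was 0.32. With 1 library per siRNA the difference between the knockdowns was not tested. Corrected for length and GC content, CENPE was at a log2 ratio of 0.52 with the ZSCAN5A siRNAs and −0.09 with si1, whereas CENPQ was at −0.02 and −0.39.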

How the results depend on the processing

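Of 126 alternative values, 107 stayed close to the reported value (counts in either direction together within 1.5 times, medians within the spread between si4 and si5). That spread comes from the si4 and si5 medians it also judges, and was 0.0061 for the checkpoint and 0.11 for the inner centromere. The inner centromere median thus counted as close at −0.24 with si4 alone and −0.08 with si5 alone. The kinetochore median with the ZSCAN5A siRNAs counted as close at 0.022 after correction, against 0.07 as deposited. The tally includes settings that could move values little or not at all. Removing the limit of 1 FPKM changed no member's value, since all 40 reached it, and a limit of 5 FPKM kept 38 of them. The limma entry sets calls at an adjusted p beside a fold count, which is a different measure. A count can stay close while its split changes: with si1 the count of 6 past 1.2-fold was 2 higher and 4 lower as deposited and 0 higher and 6 lower after correction for length and GC content. That correction took the median log2 ratio of the 40 genes with the ZSCAN5A siRNAs from 0.07 to 0.022 and the number past 1.2-fold from 5 to 3 (CENPE, CENPF and CASC5), took the medians of all 40 and of the kinetochore genes with si1 from −0.01 to −0.088, and put 3 genes past 1.2-fold between si5 and si4, where the main count was 0. With si4 alone, 8 genes were past 1.2-fold in either direction, and the median was 0.015 for all 40, 0.015 for the kinetochore and 0.11 for the checkpoint. With si5 alone, 1 gene was past 1.5-fold. Median-ratio scaling gave a checkpoint median of 0.13 with the ZSCAN5A siRNAs and 0.11 from si4 to si5, where 2 genes were past 1.2-fold. Upper-quartile scaling gave 0.14 and 0.12, with 3 genes past 1.2-fold from si4 to si5, and with si1 a checkpoint median of 0.029. It also turned the medians with si1 of all 40 and of the kinetochore genes from −0.01 to 0.0020. The cause was not tested.

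limma on log2(FPKM + 1), with si4 and si5 as replicates against 1 control and so with 1 residual degree of freedom, called 0 of 12935 genes at an adjusted p under 0.05. At an unadjusted p under 0.05 it listed 1721 (13.3%), among them CENPE, CENPF and CENPM, each with an adjusted p of 0.357, where the 2 siRNAs stood in for replicates. No paired analysis was possible because each siRNA has 1 library and the labels give no replicate numbers. For the same reason no replicate could be left out other than si4 or si5. Depth was estimated from the FPKM values and spread more widely than the near-equal read yields in the study's methods. For si5 the estimate was above the yield stated there. With 1 depth for every library, an alternative chosen after seeing the data, the counts of intervals against the control were the same and that from si4 to si5 was 22 above and 5 below. The counting intervals of 11 genes with si4 and 15 with si5 hold 1.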

Other observations

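The 10 genes whose 3′ UTR holds the complement of the si1 seed (BUB3, CENPC1, CENPE, CENPI, CENPL, CENPP, DSN1, MAD2L1, TTK and ZWILCH) had log2 ratios with si1 from −0.14 for CENPI to 0.25 for MAD2L1, on both sides of the control. SPC24, the gene with the si4 seed complement, had a log2 ratio of −0.22 with si4, 0.02 with si5 and −0.34 with si1, whose seed complement it lacks. NSL1, the gene with the si5 seed complement, had a log2 ratio of 0.14 with si4, 0.04 with si5 and 0.05 with si1.

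Among CENP-A loading and passenger complex partners outside the 40 genes, named after their values were seen, SGOL2 (shugoshin 2) was at 9.05 FPKM in the control, with 11.0 for si4, 12.6 for si5 and 9.82 for si1. GSG2 (haspin), the kinase that marks histone H3 for the passenger complex, was at 9.04 FPKM in the control, with 7.47 for si4, 7.21 for si5 and 7.65 for si1. GSG2 was thus highest in the control, as INCENP and CDCA8 were. HJURP, the CENP-A chaperone, was at 22.6 FPKM in the control, with 20.3 for si4, 22.6 for si5 and 19.7 for si1.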
